A study of Mus musculus with 6 samples.

Results

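The CD3 chains, the CD4 and CD8 coreceptors and the cytotoxic granule genes mark T cells and killer lymphocytes, and they were followed here as a trace of lymphocyte RNA in sorted pancreatic tumor cells. The 10 genes, Cd3d, Cd3e, Cd3g, Cd4, Cd8a, Cd8b1, Nkg7, Gzma, Gzmb and Prf1, were picked by symbol, and all 10 were found among the 24493 genes of the deposited table. The table held 6 libraries of bulk RNA from mouse pancreatic tumor cells, sorted from tumors grown under the skin of C57BL/6 mice. In 2 libraries the tumors had received GAFCP, the chemotherapies abraxane and gemcitabine with an agonist of CD40 and blockade of both CTLA-4 and PD-1, and in 4 control libraries they had not. All sample names begin with 6419c5, so that both groups come from 1 tumor line. Neither the marker used for the sort, the length of treatment nor the age of the mice is given in the sources used here, and the labels do not say whether each library came from its own mouse. The spread behind every p-value is that among libraries, and it may be technical.

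The T cell receptor recognises a peptide held by an MHC molecule and signals through the CD3 chains, whose cytoplasmic tails are phosphorylated by the kinase Lck. CD4 on helper T cells binds MHC class II, and CD8, built of an alpha and a beta chain on cytotoxic T cells, binds MHC class I. Killer cells store perforin and granzymes in granules and release them onto a target cell, where perforin opens the way for the granzymes. In mice some dendritic cells also carry CD4, and others carry the CD8 alpha chain without the beta chain. Pancreatic tumors of this kind usually hold few T cells, and the blocking antibodies to CTLA-4 and PD-1 act on inhibitory receptors of T cells.

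Epithelial transcripts were abundant in the libraries, which also held leukocyte RNA. Values are TPM, a measure of transcript abundance scaled for transcript length and to the same total in each library, so that levels of different genes can be compared. The epithelial keratins Krt8 and Krt18 averaged 1544 and 1691 TPM in GAFCP libraries, against 2321 and 1766 TPM in controls. The 8 markers of tumor epithelium summed to 5324 and 5359 TPM with GAFCP and to between 7039 and 7429 TPM in controls. Ptprc, which encodes the leukocyte antigen CD45, stood at 10.1 and 9.45 TPM in GAFCP libraries and at 2.86, 2.85, 2.17 and 3.06 TPM in control libraries 1 to 4. The 10 member genes summed to 38.7 and 35.8 TPM with GAFCP and to between 6.36 and 8.05 TPM in controls. A lower level in bulk RNA can mean fewer cells of a type or less RNA per cell, and these cannot be told apart. TPM keeps no sequencing depth, so the counting error behind such low values is unknown.

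The CD3 chains were higher in the GAFCP libraries. Cd3e, the chain whose antibodies are most often used to stain T cells, had 3.38 and 3.40 TPM in GAFCP libraries 1 and 2, against 0.246, 0.502, 0.250 and 0.463 TPM in control libraries 1 to 4. Cd3g had 4.37 and 4.56 TPM with GAFCP, against 0.666, 0.872, 0.386 and 0.478 TPM in controls. Both genes were under 1 TPM in each control library and over 3 TPM in both GAFCP libraries. Cd3d had 4.14 and 4.17 TPM with GAFCP, against 2.18, 1.74, 1.30 and 2.14 TPM in controls. The groups did not overlap for any of the chains, but Cd3d was already over 1 TPM in every control library. Both GAFCP libraries lay above all controls in 21.0% of the 19761 genes above 0 TPM in any library. The mean of the GAFCP libraries was 9.28 times that of the controls for Cd3e, 7.44 times for Cd3g and 2.26 times for Cd3d.

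All of the CD3 chains were called higher in the test across all genes. Of the 13720 genes tested, 19.0% were called higher and 28.5% lower. Cd3e and Cd3g reached the minimum for testing, 1 TPM in 2 libraries, only through the GAFCP libraries. Their entry thus already required a difference. The log2 changes of TPM + 1 were 1.69 ± 0.15 for Cd3e (limma adjusted p = 5.3e-05), 1.78 ± 0.15 for Cd3g (limma adjusted p = 5.5e-05) and 0.87 ± 0.15 for Cd3d (limma adjusted p = 0.0022), each with its SE and higher in 2 of 2 GAFCP libraries. Adding 1 TPM before the log shrinks the change of genes this low. Cd3e changed by 2.95 with 0.1 TPM added and by 0.65 with 5 TPM added, and the call held in both cases.

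The ratio of Cd3d to Cd3e differed between the groups. It was 1.23 and 1.22 in GAFCP libraries 1 and 2, close to 1 molecule of each, and 8.84, 3.47, 5.20 and 4.61 in control libraries 1 to 4. The ratio of Cd3g to Cd3e was 1.29 and 1.34 with GAFCP and between 1.03 and 2.70 in controls, where the groups overlapped. These ratios were chosen after the values were seen and carry no test. The Cd3d and Cd3g genes lie next to each other on chromosome 9, Cd3d from 44981786 to 44987339 and Cd3g from 44969572 to 44980431, with Cd3e nearby from 44998740 to 45009627 (GENCODE M21, GRCm38, the assembly also called mm10). The antisense gene Gm48719 overlaps 135 of 4080 exon bases of Cd3e, and whether reads were counted by strand is not given. Of the 31-base words of their transcripts, 3.1% for Cd3d, 2.7% for Cd3e and 0.2% for Cd3g also occur in transcripts of other genes. Whether the Cd3d reads of the controls came from Cd3d itself was not tested.

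**Figure D1:**
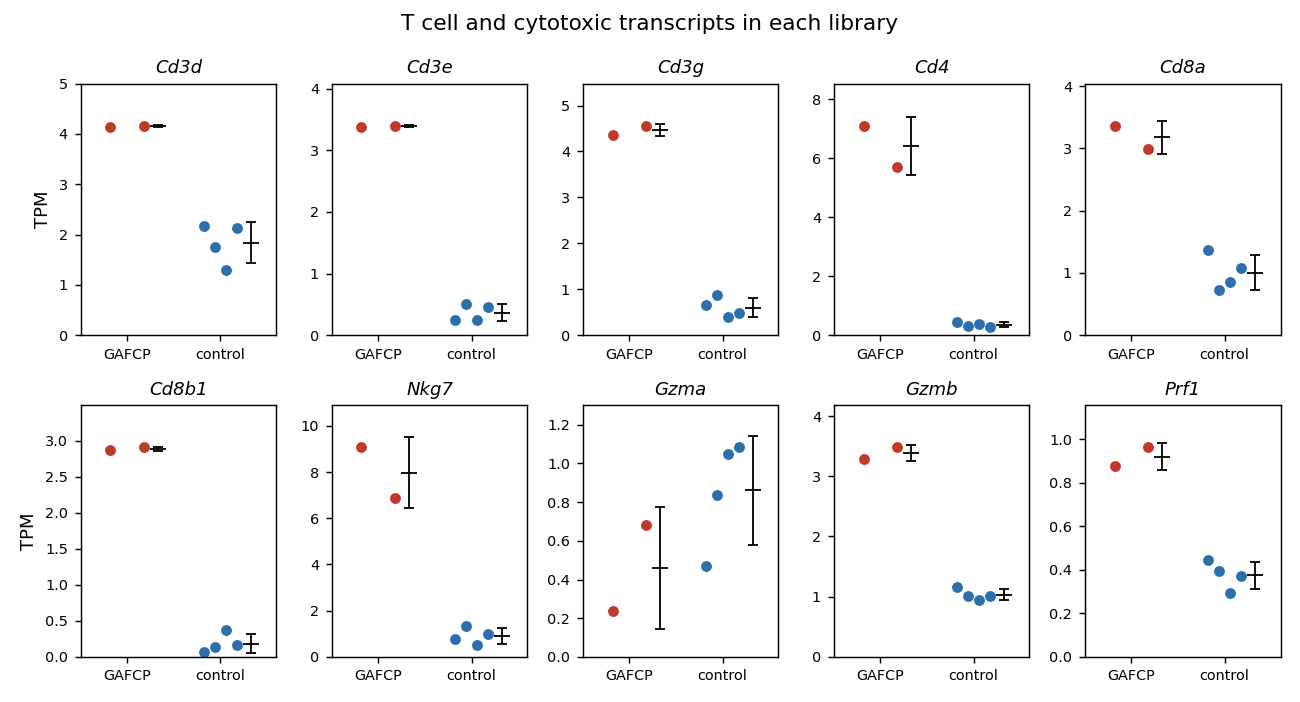
TPM of the 10 transcripts in each library, with GAFCP (2 red points) left of control (4 blue points) in each panel, black bars giving the mean and SD, and axes that start at 0 but differ in scale. In every panel except that of Gzma both GAFCP points lie above all control points, for example Cd4 at 7.11 and 5.72 TPM against at most 0.459 TPM. Such a separation was seen in 21.0% of the 19761 genes above 0 TPM in any library.

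The coreceptors also rose. Cd4 had 7.11 and 5.72 TPM in GAFCP libraries, against 0.459, 0.312, 0.373 and 0.276 TPM in control libraries 1 to 4. Its mean with GAFCP was 18.1 times the control mean, and its log2 change of TPM + 1 was 2.45 ± 0.14 (SE; limma adjusted p = 4.9e-06; higher in 2 of 2 GAFCP libraries). Cd8b1, the CD8 beta chain, had 2.87 and 2.91 TPM with GAFCP, against 0.0636, 0.131, 0.367 and 0.162 TPM in controls, which gave 1.72 ± 0.16 on the log2 scale (SE; limma adjusted p = 7.0e-05). Cd8a, the CD8 alpha chain, had 3.37 and 2.99 TPM with GAFCP, against 1.37, 0.720, 0.859 and 1.07 TPM in controls, which gave 1.07 ± 0.16 on that scale (SE; limma adjusted p = 9.4e-04). No coreceptor overlapped between the groups. Over all tested genes, both GAFCP libraries lay above all controls in 24.7% and below them in 36.9%, and 19.0% were called higher. Cd4 and Cd8b1 entered the test only through the GAFCP libraries, so that their entry already required a difference. Cd4 lies on chromosome 6 from 124864692 to 124888221, and Cd8b1 (71322788 to 71337494) and Cd8a (71373427 to 71379173) are neighbours on the same chromosome.

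The balance among the coreceptors was not the same in the groups. The sum of Cd8a and Cd8b1 was 0.876 and 1.03 times Cd4 in GAFCP libraries 1 and 2, and 3.12, 2.73, 3.29 and 4.46 times Cd4 in control libraries 1 to 4. The alpha and beta chains of CD8 stood near 1 to 1 with GAFCP, at ratios of 1.17 and 1.03. In control libraries 1 to 4 the alpha chain was 21.5, 5.49, 2.34 and 6.63 times the beta chain, a range set by beta chain values far under 1 TPM. Dendritic cells can carry CD4 or CD8 alpha, and their markers summed to less with GAFCP. The 7 dendritic cell markers summed to 7.24 and 6.38 TPM with GAFCP and to between 8.65 and 9.21 TPM in controls, with 3 tested, 1 of them lower (Itgax, 1.63 ± 0.193 against 3.14 ± 0.0447 TPM, SD) and 0 higher. Over all tested genes, 28.5% were lower and 19.0% higher. Zbtb46 averaged 2.41 and 2.60 TPM (limma adjusted p = 0.66), and Xcr1, Clec9a and Flt3 were under 0.5 TPM in every library. Flt3 alone of these lay above the controls, at 0.170 and 0.367 TPM with GAFCP against at most 0.121 TPM. The part of dendritic cells in the coreceptor values was not tested.

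The granule genes did not move as a block. Nkg7, a granule membrane protein that mouse killer cells need for degranulation, had 9.07 and 6.88 TPM in GAFCP libraries, against 0.790, 1.34, 0.534 and 0.992 TPM in control libraries 1 to 4. Gzmb, the granzyme that cuts after aspartate and activates caspases, had 3.29 and 3.48 TPM with GAFCP, against 1.16, 1.003, 0.940 and 1.01 TPM in controls. Gzma, a granzyme with trypsin-like specificity, had 0.235 and 0.683 TPM with GAFCP, against 0.471, 0.837, 1.05 and 1.08 TPM in controls. Nkg7 and Gzmb were higher in both GAFCP libraries than in any control library, whereas the groups overlapped for Gzma. Prf1, which encodes perforin, had 0.875 and 0.962 TPM with GAFCP, against 0.443, 0.393, 0.295 and 0.370 TPM in controls, without overlap. Of the 19761 genes above 0 TPM in any library, 21.0% had both GAFCP libraries above all controls.

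Nkg7 and Gzmb passed the test, in which 19.0% of all tested genes were higher, and Gzma did not. Their log2 changes of TPM + 1 were 2.24 ± 0.19 for Nkg7 (SE; limma adjusted p = 4.7e-05) and 1.11 ± 0.11 for Gzmb (SE; limma adjusted p = 1.4e-04). Nkg7 entered the test only through the GAFCP libraries, so that its entry already required a difference. Gzma stood at -0.35 ± 0.21 on this scale (SE; limma adjusted p = 0.20), and its change stayed between -0.85 and -0.10 under the alternatives, none of which called it. The ratio of Gzma to Gzmb was 0.0714 and 0.196 with GAFCP and between 0.407 and 1.12 in controls, a ratio chosen after the values were seen. Prf1 stayed under 1 TPM in all libraries and did not enter the test. Where no filter was used, its log2 change was 0.48 ± 0.07 (SE; limma adjusted p = 0.0022), in a test that called 14.0% of 19761 genes as higher.

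The 300 bases around the annotated start of each granule gene are shown because these genes differed unequally between the groups, with the letters TGTGGT or their complement ACCACA, the core bound by Runx factors, in capitals. Each sequence is from RefSeq on GRCm38.p6, runs from 250 bases before the start to 50 after it, and is written 5′ to 3′ on the strand of the gene. The windows are chr7:43436888-43437187 on the plus strand for Nkg7, chr14:56262285-56262584 on the minus strand for Gzmb, chr13:113100932-113101231 on the minus strand for Gzma and chr10:61297586-61297885 on the plus strand for Prf1.
Nkg7: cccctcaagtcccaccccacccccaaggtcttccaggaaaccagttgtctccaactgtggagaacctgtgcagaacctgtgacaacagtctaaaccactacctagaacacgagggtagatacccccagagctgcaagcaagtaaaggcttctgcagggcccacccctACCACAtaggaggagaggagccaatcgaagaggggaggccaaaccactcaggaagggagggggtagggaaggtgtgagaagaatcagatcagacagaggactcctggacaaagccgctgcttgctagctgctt
Gzmb: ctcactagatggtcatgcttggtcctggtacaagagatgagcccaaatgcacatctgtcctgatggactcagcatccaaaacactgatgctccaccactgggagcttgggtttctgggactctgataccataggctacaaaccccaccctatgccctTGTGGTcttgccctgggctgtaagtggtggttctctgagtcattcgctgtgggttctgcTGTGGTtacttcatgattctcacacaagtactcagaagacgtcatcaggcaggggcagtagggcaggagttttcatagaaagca
Gzma: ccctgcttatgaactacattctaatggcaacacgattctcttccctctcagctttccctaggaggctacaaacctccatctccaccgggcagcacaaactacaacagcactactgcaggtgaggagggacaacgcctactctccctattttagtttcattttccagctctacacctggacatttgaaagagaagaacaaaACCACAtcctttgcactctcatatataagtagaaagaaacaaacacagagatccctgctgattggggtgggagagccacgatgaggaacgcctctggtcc
Prf1: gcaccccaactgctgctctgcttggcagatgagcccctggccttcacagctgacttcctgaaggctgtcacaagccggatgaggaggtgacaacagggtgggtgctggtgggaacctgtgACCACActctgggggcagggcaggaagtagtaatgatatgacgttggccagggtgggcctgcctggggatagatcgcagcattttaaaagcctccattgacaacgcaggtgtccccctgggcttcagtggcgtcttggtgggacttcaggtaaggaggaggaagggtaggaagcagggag

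The Runx core was present in the windows of all 4 granule genes and in none of those of Cd3d, Cd3e, Cd3g and Cd8a, the other members with a promoter in the table (8 of 10 matched). On both strands together, 16.8% of all 32851 promoter windows hold it. Its first base lay 83 bases before the start in Nkg7, 93 and 34 in Gzmb, 50 in Gzma and 130 in Prf1. All distances here are from the RefSeq starts, and GENCODE M21 begins Nkg7 (at 43437073) and Gzmb (at 56262260) elsewhere. The letters TCACAC, a T-box factor motif, occurred in Nkg7 and Gzmb only among the members, 12 and 15 bases before the start, and in 14.5% of all windows. The AP-1 letters TGANTCA occurred in Gzmb alone among the members, 58 bases before the start, and in 7.8% of all windows. None of these matches overlapped another. The Runx core was present in Gzma, which did not pass the test, as well as in Nkg7 and Gzmb, which rose. Whether these motifs bear on the levels of the genes was not tested.

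The members' calls stood against a broad change of the transcriptome. Of 13720 genes tested, 47.5% were called. The share was 19.0% for higher with GAFCP and 28.5% for lower, 2606 and 3909 genes, and with median-of-ratios scaling 3548 and 3321 genes. Of the 10 members 9 entered the test and 8 were called, all higher. Of these 9 members, 5 (Cd3e, Cd3g, Cd4, Cd8b1 and Nkg7) reached the minimum of 1 TPM in 2 libraries only through the GAFCP libraries, so that their entry already required a difference. The 4 that reached it through the controls were Cd3d, Cd8a, Gzma and Gzmb. In 9 of the 10 members both GAFCP libraries lay above all controls, which was so for 21.0% of the 19761 genes above 0 TPM in any library and for 24.7% of the 13720 tested. No member lay below all controls in both GAFCP libraries, as 36.9% of tested genes did. Without GAFCP library 1 or without GAFCP library 2, only 5 members entered the test and 4 were called in each case. With the genes kept as in the full set, a setting that was not planned, the left-out library had still helped to choose the genes. Those fits thus cannot show that the calls of Cd3e, Cd3g, Cd4 and Cd8b1 hold without it. There Cd4 changed by 2.31 without GAFCP library 1 and by 2.58 without GAFCP library 2.

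**Figure D2:**
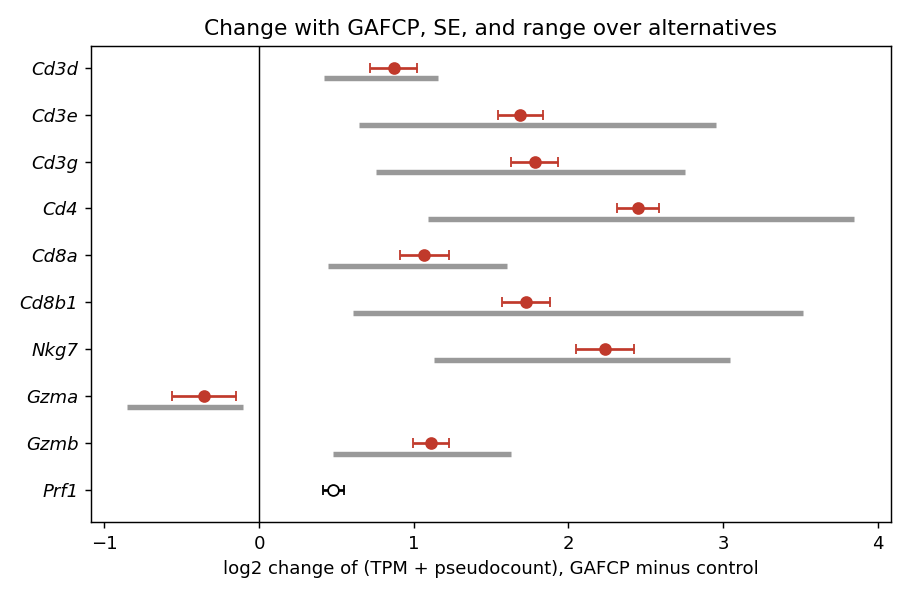
Log2 change of each transcript, GAFCP minus control, on the log2(TPM + 1) scale, as points with SE bars, and as grey bars the range over the alternative settings, the ends of which come mostly from other pseudocounts. Prf1 (open point) is from the test without a filter. Cd4 stands at 2.45 (range 1.09 to 3.85), and the bar of Gzma stays below 0 (-0.85 to -0.10).

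Each transcript was also set against Ptprc in the same library, a comparison chosen after the values were seen, to ask whether it differed by more than this general leukocyte gene. The mean of Ptprc with GAFCP was 3.58 times the control mean. The summed CD3 chains were 1.17 and 1.28 times Ptprc with GAFCP and between 0.893 and 1.09 times in controls. The summed coreceptors were 1.32 and 1.23 times Ptprc with GAFCP and between 0.408 and 0.737 times in controls. The summed granule genes were 1.33 and 1.27 times Ptprc with GAFCP and between 0.999 and 1.30 times in controls, where the groups overlapped. Cd4 was 0.702 and 0.605 times Ptprc in GAFCP libraries, against 0.160, 0.110, 0.172 and 0.0904 times in control libraries 1 to 4. Nkg7 was 0.895 and 0.728 times Ptprc with GAFCP, against 0.276, 0.469, 0.246 and 0.325 times in controls. Gzma was 0.0232 and 0.0722 times Ptprc with GAFCP, against 0.164, 0.294, 0.484 and 0.354 times in controls. Cd4 and Nkg7 thus lay higher, and Gzma lower, relative to Ptprc in both GAFCP libraries than in any control. Relative to Ptprc, 93.7% of 13719 genes were called lower with GAFCP and 1.21% higher. A lower position such as that of Gzma was thus shared by most genes.

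On the log2 scale with 0.1 TPM added, the change relative to Ptprc was 2.03 ± 0.38 for Cd4 (SE; limma adjusted p = 1.3e-04), 1.23 ± 0.28 for Nkg7 (SE; limma adjusted p = 6.5e-04) and -2.66 ± 0.57 for Gzma (SE; limma adjusted p = 4.1e-04). In this test 1.21% of 13719 genes were higher than Ptprc's own change and 93.7% lower. The calls of Cd4, Nkg7 and Gzma held under every alternative in which they were tested, 10, 12 and 10 in number, including 4 other leukocyte genes in place of Ptprc. Cd4, Nkg7, Cd3e, Cd3g and Cd8b1 entered this test only through the GAFCP libraries, so that their entry already required a difference. Of these genes, only Nkg7 was tested with either GAFCP library left out. Cd3e (1.14 ± 0.43), Cd3g (0.94 ± 0.34) and Cd8b1 (1.70 ± 0.66, SE) passed as well (limma adjusted p = 0.021, 0.017 and 0.024). Their calls were lost with 0.5 TPM added (limma adjusted p = 0.085, 0.057 and 0.086) and with 1 TPM added. Cd3d was lower relative to Ptprc (-0.65 ± 0.21, SE; limma adjusted p = 0.0083), which was lost without GAFCP library 1 (limma adjusted p = 0.11), without GAFCP library 2 (limma adjusted p = 0.061) and with Coro1a, Cd53 or Spi1 in place of Ptprc. Cd8a (-0.21 ± 0.30) and Gzmb (-0.18 ± 0.27, SE) did not pass (limma adjusted p = 0.51 and 0.52), and turned positive with Coro1a, Cd53 or Spi1, again without a call. With 1 TPM added both were called lower than Ptprc (limma adjusted p = 0.029 and 0.031).

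**Figure D3:**
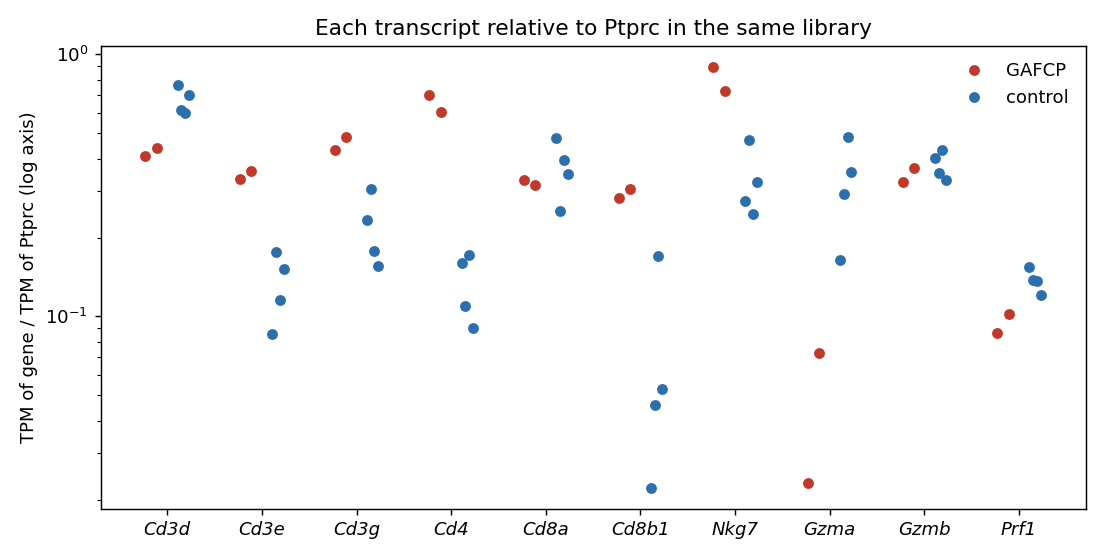
TPM of each transcript divided by TPM of Ptprc in the same library, on a log axis, with GAFCP (2 red points) left of control (4 blue points) for each gene. Cd3e, Cd3g, Cd4, Cd8b1 and Nkg7 lie above the controls, Cd3d, Gzma and Prf1 lie below them, Cd8a lies among them, and Gzmb has 1 point among them and 1 (0.325) just below the lowest control (0.332). Over 13719 genes, 93.7% were called lower relative to Ptprc and 1.21% higher.

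Markers of several other leukocytes were higher in the same libraries, while the summed dendritic cell markers and the summed mast cell and basophil markers were lower. The mast cell and basophil sum was 31.2 and 30.6 TPM with GAFCP and between 81.0 and 83.3 TPM in controls. In controls it was mostly Mcpt4 and Mcpt8. Of 5 tested mast cell and basophil markers these 2 were lower and 3 were higher, where 28.5% and 19.0% of all tested genes were. For the calls that follow, 19.0% of all tested genes were higher. All 10 pan-leukocyte markers were called higher (median log2 change 1.28, where the median of all tested genes was -0.07), and their summed TPM was 329.0 and 339.4 with GAFCP and between 113.9 and 131.6 in controls. Of 12 macrophage and monocyte markers 11 were higher (median 1.76), and their sum was 2876 and 2874 TPM with GAFCP and between 772.6 and 820.1 TPM in controls, led by Lyz2 and C1qa. None of these macrophage markers was at 0 in any library. The CD3 chains made up a small part beside them, with 11.9 and 12.1 TPM in GAFCP libraries and between 1.94 and 3.12 TPM in controls. The sum of the B and plasma cell markers was 6.50 and 7.27 TPM with GAFCP and between 0.965 and 1.74 TPM in controls, mainly Jchain (4.66 and 4.08 TPM with GAFCP), while Cd79a averaged 0.618 and 0.266 TPM and Ms4a1 was under 0.2 TPM in all libraries. Only 1 of the 7 B and plasma cell markers, Jchain, was tested, and it was higher. The part of these other cell types in the member values was not tested.

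Other genes of the T cell receptor pathway rose with the members. Of 16 listed genes 11 had a row in the table, 6 entered the test (3 of them only through the GAFCP libraries) and all 6 were higher (median log2 change 1.19). Over all 13720 genes tested, 19.0% were higher and 28.5% lower. Lck, the kinase of the CD3 chains, averaged 5.24 ± 0.0699 TPM with GAFCP (SD, n = 2) and 1.91 ± 0.194 TPM in controls (SD, n = 4). The adaptors Fyb and Lcp2, which myeloid cells also express, had log2 changes of 1.65 and 1.53, and the adaptor Lat one of 1.28. Cd247, the zeta chain that completes the receptor complex, was at 0.894 and 1.31 TPM with GAFCP and between 0.0825 and 0.813 TPM in controls, and it was not tested. The constant genes of the receptor itself were not analysed here.

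Of 20 surface proteins and transcription factors of T cells 14 entered the test, 7 of them only through the GAFCP libraries, and 13 were higher and 1 lower (median 0.95). The shares over all tested genes were 19.0% higher and 28.5% lower. Cd2, an adhesion receptor, averaged 4.27 ± 0.569 TPM with GAFCP (SD, n = 2) and 0.703 ± 0.328 TPM in controls (SD, n = 4). Cxcr3, the receptor for Cxcl9 and its relatives, had a log2 change of 1.10, and Thy1, which fibroblasts also carry, one of 1.03. The gene that fell was Tcf7, a transcription factor of naive and stem-like T cells, with 7.93 and 8.27 TPM with GAFCP and between 17.7 and 21.8 TPM in controls (limma adjusted p = 2.2e-05). Its control level exceeded the summed CD3 chains of the same libraries.

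Of 14 listed effector cytokines and their regulators 8 were tested, 3 of them only through the GAFCP libraries. All 8 were higher (median 1.95), as were 19.0% of all tested genes. The other 6 listed were too low to test, and 4 of them, Fasl, Xcl1, Il2 and Il21, overlapped between the groups. The chemokines Ccl5, Ccl4 and Ccl3, which macrophages make as well, had log2 changes of 2.98, 2.80 and 2.44, and Prdm1, a regulator of effector differentiation, one of 1.45. Ifng, the cytokine of activated T and NK cells, had 1.75 and 1.32 TPM with GAFCP and between 0.0638 and 0.156 TPM in controls.

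Receptors of natural killer cells were mostly too low to test. Of 14 listed genes 5 entered the test, 3 of them only through the GAFCP libraries, and 4 were higher and 1 lower (median 0.62). Among all tested genes 19.0% were higher and 28.5% lower. Klrd1, the CD94 subunit shared by NK and CD8 T cells, averaged 3.66 ± 1.10 TPM with GAFCP (SD, n = 2) and 0.718 ± 0.476 TPM in controls (SD, n = 4). Cd226 and Slamf7, activating receptors found on T cells as well, had log2 changes of 0.84 and 0.62. Klra4, one of a family of near-identical Ly49 genes whose reads may be divided among them, was lower (-0.75, limma adjusted p = 0.025), a call lost without a filter (limma adjusted p = 0.054). Ncr1, the receptor that defines NK cells in mice, had a listed value of 0 TPM with GAFCP in each library and of at most 0.123 TPM in controls. Klrb1c, the NK1.1 antigen, was at 0.182 and 0.126 TPM with GAFCP and between 0.0249 and 0.0914 TPM in controls.

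Among regulatory T cell genes 1 of 5 tested was higher and 0 were lower (median 0.02), a share near the 19.0% of all tested genes that were higher. The gene was Ikzf4, a transcription factor, whose log2 value rose by 0.56 ± 0.13 (SE; limma adjusted p = 0.0083). Foxp3, which defines these cells, was at 0.111 and 0.297 TPM with GAFCP and between 0.147 and 0.245 TPM in controls. Of 8 inhibitory receptors and exhaustion genes, 2 of which entered the test only through the GAFCP libraries, 7 were higher and Tox, a transcription factor of exhausted T cells, lower (median 0.79). These calls stand beside 19.0% higher and 28.5% lower over all tested genes. Entpd1, the ectonucleotidase CD39, and Havcr2, also found on myeloid cells, had log2 changes of 1.71 and 1.12. Cd200r1 and Tigit had changes of 0.93 and 0.69. Pdcd1, which encodes PD-1, averaged 1.59 TPM with GAFCP and 0.413 TPM in controls, and Ctla4 averaged 1.31 and 0.427 TPM.

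The other granzymes also differed among themselves. Of 15 other granzymes and granule genes 13 entered the test, 3 of them only through the GAFCP libraries, and 8 were higher and 1 lower (median 0.53). The shares over all tested genes were 19.0% and 28.5%. Srgn, the proteoglycan that holds granule proteases in many blood cells, averaged 95.8 ± 4.48 TPM with GAFCP (SD, n = 2) and 41.0 ± 2.20 TPM in controls (SD, n = 4), and Serpinb9, an inhibitor of granzyme B, had a log2 change of 0.53. Gzmf had 3.58 and 3.15 TPM with GAFCP and between 0.228 and 0.784 TPM in controls. Gzme had 3.17 and 2.996 TPM with GAFCP and between 6.80 and 9.70 TPM in controls, and its log2 change was -1.15 ± 0.13 (SE; limma adjusted p = 2.2e-04). Gzme was the most abundant granzyme in the controls, where Gzmb averaged 1.03 TPM. Gzmk was at 1.23 and 0.454 TPM with GAFCP and listed at 0 in all controls, and Gzmm (0.867 and 0.848 TPM on average) did not pass (limma adjusted p = 0.91).

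Mouse granzymes C to G are related genes, and reads may not be told apart between them. The antisense gene Gm48719 overlaps 135 of 4080 exon bases of Cd3e, and whether reads were counted by strand is not given. Of the 31-base words in the transcripts of Gzme, 42.1% also occur in transcripts of other genes, first among them Gzmd and Gzmg, and the share is 34.9% for Gzmf and 38.2% for Gzmd. For Gzmb the share is 1.4%, all with Gzmc, and for Gzma it is 0.0%. How the reads of these genes were divided was not examined here, so the values of granzymes C to G are uncertain. Proteases of mast cells and basophils, of the same protease family, fell as well, with Mcpt4 at 4.64 ± 0.659 TPM with GAFCP (SD, n = 2) and 47.0 ± 2.57 TPM in controls (SD, n = 4), and Mcpt8 at 17.7 and 33.2 TPM on average. Of 8 mast cell and basophil markers 5 were tested, with 3 higher, all of which entered only through the GAFCP libraries, and 2 lower. Among all tested genes 19.0% were higher and 28.5% lower.

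**Figure D4:**
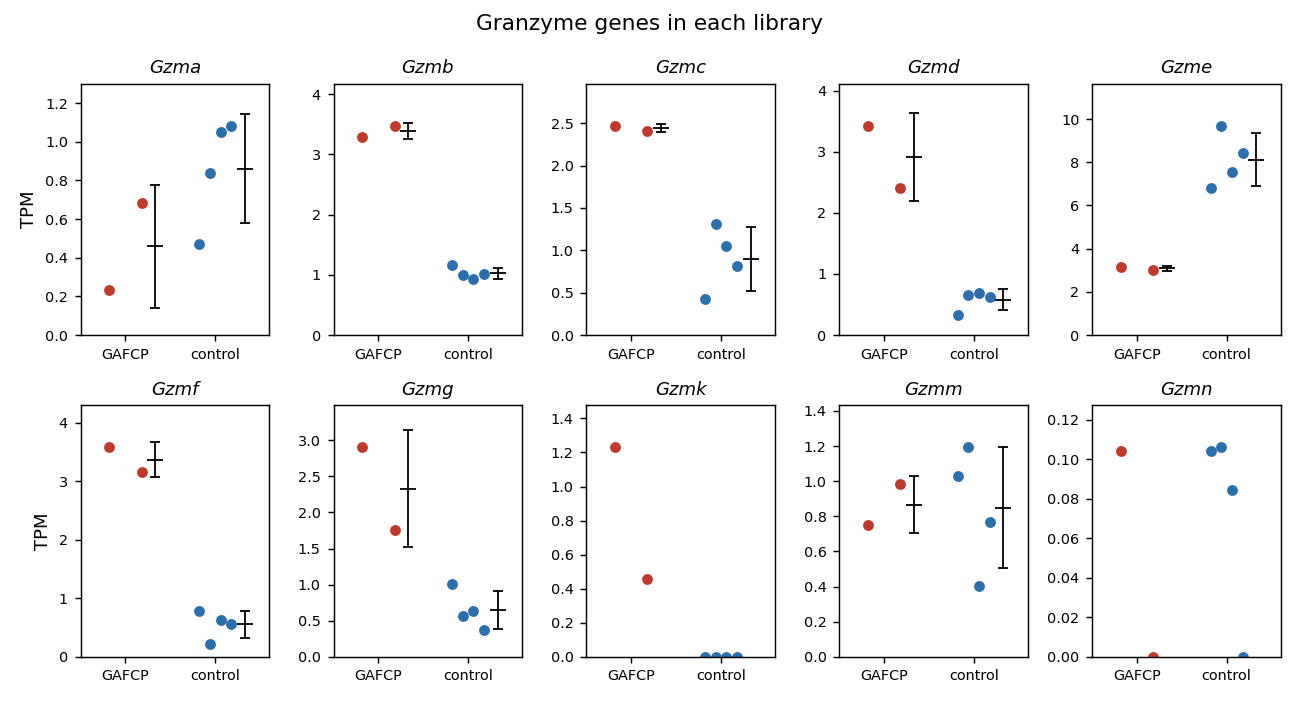
TPM of 10 granzyme genes in each library, with GAFCP (2 red points) left of control (4 blue points) in each panel, black bars giving the mean and SD except where a library is listed at 0, and axes that start at 0 but differ in scale. Gzmb, Gzmc, Gzmd, Gzmf, Gzmg and Gzmk lie above the controls with GAFCP, Gzme lies below them (3.17 and 2.996 TPM against at least 6.80 TPM), and Gzma, Gzmm and Gzmn overlap them.

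The genes whose levels ran most like the summed CD3 chains over the 6 libraries were Daxx, Arhgef3, Tnfrsf1b, Sgk1 and Il15ra, with Pearson correlations of 0.9999, 0.9996, 0.9994, 0.9991 and 0.9991 on the log2 scale. The likeness is a description over 6 libraries of 2 groups that lie apart, and 1581 genes that are not members had a correlation above 0.95. Daxx was at 33.2 and 33.2 TPM with GAFCP and between 22.7 and 24.7 TPM in controls, and Il15ra at 9.78 and 10.1 TPM with GAFCP and between 2.39 and 3.30 TPM in controls.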

How the data were processed

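RNA of sorted tumor cells was extracted with a column kit, per the labels' protocols. The authors deposited TPM values, 1 column per library, and the submitters' processing notes name Salmon and mm10. Neither a Salmon version nor an annotation is stated in the sources used here. Depth is unknown, and only replicate spread gives the precision.

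Groups and library numbers were read from sample titles. The filter kept a gene that reached 1 TPM in 2 or more libraries. The test was limma (version 3.58.1, R version 4.3.3) on log2(TPM + 1) (empirical Bayes with a trend, 4 residual degrees of freedom), with Benjamini-Hochberg adjustment over all 13720 genes and calls at an adjusted p under 0.05. The script was tested on simulated data in which far fewer genes changed than were called here. That test does not cover so broad a change. Changes are GAFCP minus control. Sums and ratios are descriptions and carry no p. Changes relative to Ptprc used log2(TPM + 0.1) minus that of Ptprc, fitted over all genes. Positions and 31-base words are from GENCODE M21, promoters from RefSeq.

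The members, lists and comparisons were chosen with earlier results of these data known. Named genes are all members, up to 4 called genes of each lymphocyte list by p, the 2 most abundant of each marker list, and the 5 most alike the CD3 chains. The text gives these in part. Other genes (Ptprc, Coro1a, Cd53, Spi1, Cd247, Ifng, Ncr1, Klrb1c, Foxp3, Pdcd1, Ctla4, Tox, Fasl, Xcl1, Il2, Il21, Xcr1, Clec9a, Flt3, Ms4a1 and other granzymes) were named after their values were seen. Alternatives changed the pseudocount, filter, scaling, variance model, threshold, replicate block and libraries used.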

Additional observations from a re-analysis of the deposited data

Results flagged for a closer look

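In 9 of 81 values tested, 1 of the 4 control libraries stood far from the others, where chance flags about 1 in 20 of separate values. Several of the flagged values contain one another or were picked for likeness, so the count cannot be set against that rate. Control library 3 was lowest for the summed CD3 chains (1.94 TPM, against 3.08 to 3.12 TPM in the other controls), for the sum of all 10 members (6.36 TPM, against 7.84 to 8.05 TPM) and for the CD3 chains over the macrophage markers (0.00249). It was also lowest for Daxx (22.7 TPM), Arhgef3 (13.2 TPM) and Tnfrsf1b (29.5 TPM), genes picked for their likeness to the CD3 chains. Without control library 3, Gzma no longer reached the minimum for testing, and all 8 members that were tested were called higher. Over all 13655 genes tested in that setting, 2585 were higher and 4641 lower. Control library 2 was highest for Cd226 (0.391 TPM), Lyz2 (434.3 TPM) and the macrophage and monocyte sum (820.1 TPM).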

How the results depend on the processing

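Direction and call of each member's log2 change held in all 188 combinations of member and alternative run. A member that failed the filter under an alternative is not counted there. This was so for Cd3e, Cd3g, Cd4 and Cd8b1 when either GAFCP library was left out and the filter rerun. The fits that kept the genes of the full set are counted, though the left-out library had helped to choose those genes. The count of 8 members called became 0 at a mean of at least 5 TPM, where no member was tested, and ranged from 4 to 8 when 1 library was left out, the low end with either GAFCP library left out and 5 members tested. Over all genes 6515 were called, and 4258 to 7226 with 1 library left out. Library numbers 1 and 2 occur in both groups, but deviations of same-numbered libraries correlated at -0.01 and -0.02, so nothing shows that they are pairs. With the replicate number as a block 8 members and 5894 genes were called. Relative to Ptprc, Cd8a changed to 0.38 with Coro1a, 0.38 with Cd53 and 0.12 with Spi1, and Gzmb to 0.41, 0.41 and 0.15, none of them called. The ratio of granule genes to CD3 chains turned to 0.040 on the log2 scale with control libraries 1 and 2 alone (-0.12 with all), the ratio of Cd3g to Cd3e to 0.062 with control libraries 3 and 4 alone, and the mast cell and basophil difference to 0.043 with the mean of log2 values (-1.41 for the sum). The mean of log2 values weighs each marker alike, whereas Mcpt4 and Mcpt8 made up most of the mast cell and basophil sum in controls. The causes of these turns were not tested. Most member values lie under 5 TPM, and their counting error is unknown.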

Other observations

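Some genes used to describe lymphocytes were more abundant in these libraries than the CD3 chains. Tigit, an inhibitory receptor, was at 35.3 and 32.5 TPM with GAFCP and between 18.3 and 22.2 TPM in controls, where the CD3 chains together reached at most 3.12 TPM. Thy1 was at 13.9 and 14.3 TPM with GAFCP and between 5.29 and 7.21 TPM in controls. Which cells these transcripts came from was not tested.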
